A study of Homo sapiens with 21 samples.

Results

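The genes described are the 7 members of the FOS and JUN families, FOS, FOSB, FOSL1, FOSL2, JUN, JUNB and JUND, found by symbol among the 62656 genes of the count table. They were selected on measured values, namely their levels and their changes for each of 6 compounds against control and for PFDS against PFOS, so those changes are given as description, and a call in one of those contrasts supports nothing. RNA was measured in SH-SY5Y, a human neuroblastoma line, after 11 days of differentiation to neuron-like cells. The cells then received 30 µM of a perfluoroalkyl or polyfluoroalkyl substance (PFAS) for 24 h in treatment solutions with 1% methanol, or were controls, for which the sources used here give no methanol content. In any difference from control, the compound and the methanol therefore cannot be told apart. All groups are wild type by their labels, and each has 3 libraries, 21 in all. Of the 6 compounds, PFOA is a carboxylic acid and PFDA its longer-chain counterpart. PFOS is a sulfonic acid and PFDS its longer-chain counterpart. The fluorotelomers 8:2 FTS and 8:2 FTOH end in a sulfonic acid and in an alcohol group. The cells are 1 cancer line at 1 dose and 1 time, and the labels do not say whether the 3 libraries of 1 group were separate cultures, so a p-value speaks only of the spread among these libraries, which may be technical.

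FOS and JUN proteins are basic leucine zipper transcription factors that pair to form AP-1. JUN proteins can pair with each other or with a FOS protein, whereas FOS proteins need a JUN partner, and the pair binds short DNA elements near many genes for growth, stress and neuronal activity. In neurons FOS and FOSB are immediate early genes: their RNA is short-lived and is made anew when calcium, growth factor or stress signals arrive, while JUND RNA is present without such a signal.

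Total counts per library ran from 7680024 to 30429746 with a median of 14633793, and levels are given as CPM, the reads of a gene scaled by TMM to a common library total. 8:2 FTOH replicate 3 and control replicate 3 stood apart, with 6.11% and 6.33% of counts on the mitochondrial chromosome against 3.37% to 5.4% in the others, and are absent from the authors' normalized table, so a log2 fold change of the 7 genes against control that changed sign or moved by more than 1.5 times without both is also given without them, except where it stayed within 0.10 of 0. Markers of noradrenergic neuroblastoma cells summed to 5250 to 6570 CPM per library, with only TH of 14 markers under 1 CPM as a mean over all libraries (1.34 CPM for 8:2 FTOH). Markers of the mesenchymal-type state summed to 492 to 610 CPM, with PRRX1, YAP1, IFI16 and MEOX2 of 14 markers under 1 CPM and 2 markers at 0 in all libraries. Over 84 tests of the first list against control edgeR called 0, with 21 at an unadjusted p below 0.05 and 5 called by DESeq2. Over 60 tests of the second it called 0, with 8 at an unadjusted p below 0.05 and 0 called by DESeq2. Over all genes, 5.58% (PFDS) to 10.1% (PFOA) had an unadjusted p below 0.05 against control. Of all tested genes DESeq2 called 19 (PFOS) to 128 (PFOA) against control, and edgeR 2 (PFDA) to 21 (8:2 FTS).

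Per kilobase of counted gene length, JUND was the most abundant of the 7 genes in controls, at 75.9 ± 9.56 CPM per kb, followed by JUN at 18.3 ± 1.52 and JUNB at 12.5 ± 3.09 CPM per kb (SD, n = 3). FOS followed at 2.35 ± 0.293 CPM per kb and FOSL2 at 2.25 ± 0.384 CPM per kb, and these neighbours overlapped between libraries. FOSL1 and FOSB were lowest, at 0.567 ± 0.385 and 0.23 ± 0.0688 CPM per kb, and overlapped too. Under every compound FOSL2 had a higher mean than FOS, from 1.65 ± 0.111 CPM per kb for PFOS to 2.01 ± 0.196 CPM per kb for 8:2 FTS, while FOS lay between 0.432 ± 0.153 CPM per kb for PFOS and 1.40 ± 0.362 CPM per kb for PFDS. This order depends on the counted lengths, 3186 bases for FOS and 7162 for FOSL2, which sum all annotated exons. Which RNA forms the cells held was not tested. The AP-1 RNA of these cells was thus mostly JUND RNA, with the FOS family a small part of it.

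All 7 genes passed the filter on low counts, which left 24879 genes. FOSB had the fewest libraries at the cutoff among them: its level reached the filter's 0.683 CPM in 12 of 21 libraries, 9 of them from compound groups.

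Promoters are shown for a pair of FOS-family and a pair of JUN-family genes, because FOS and FOSB had the lowest values relative to control for every compound except PFDS. JUN and JUND, with log2 fold changes from -0.31 to 0.06, are set beside them. Each line holds the 120 bases before the RefSeq start of the gene (GRCh38.p14, a patch of the hg38 assembly that the counts use), read 5′ to 3′ on the gene's strand, and capitals mark a TATA box (TATAAA), a CRE core (TGACGT or its reverse complement) or a CRE-like site (TGACNTCA). The stretches are chr14:75278708-75278827 on the plus strand for FOS, chr19:45467876-45467995 on the plus strand for FOSB, chr1:58784048-58784167 on the minus strand for JUN and chr19:18281623-18281742 on the minus strand for JUND.
FOS: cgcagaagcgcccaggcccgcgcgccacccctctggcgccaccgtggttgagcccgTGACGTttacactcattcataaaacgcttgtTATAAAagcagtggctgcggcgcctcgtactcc
FOSB: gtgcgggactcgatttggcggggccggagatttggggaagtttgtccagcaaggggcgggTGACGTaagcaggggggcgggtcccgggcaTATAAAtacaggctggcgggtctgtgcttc
JUN: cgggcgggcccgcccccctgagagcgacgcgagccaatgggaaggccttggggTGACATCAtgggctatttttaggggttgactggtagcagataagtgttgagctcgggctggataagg
JUND: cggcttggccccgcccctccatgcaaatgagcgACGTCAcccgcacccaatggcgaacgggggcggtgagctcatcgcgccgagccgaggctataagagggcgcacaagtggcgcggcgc

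FOS and FOSB share an arrangement in these letters: a CRE core from base -64 in FOS and -60 in FOSB, and a TATA box from -33 and -30, counted back from the RefSeq start. FOSL2 holds a CRE core from -66, JUN a CRE-like site from -67, and JUND a CRE core from -87 and a CRE-like site from -200 that contains the core. JUNB holds a TATA box from -31 and none of these CRE letters within the 250 bases searched on both strands. Over all 35116 RefSeq promoters of that length, 7.1% hold the CRE core, 6.87% the CRE-like site and 10.7% the TATA box. The AP-1 element TGANTCA is in 6.57% and the CArG box that serum response factor binds is in 1.16%, and neither is in the window of the 6 members searched. A GC box (GGGCGG), in 42.6% of all promoters, is in all of the 6 except JUNB. A match describes letters only, and FOSL1 has no entry. Bases farther than 250 from the start and other spellings of an element were not searched, so a gene without a match may still hold such a site.

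FOS encodes the founding member of the family and lies at chr14:75278826-75282230 on the plus strand (ENSG00000170345, hg38), with 3 merged exons. Its level was 2.40, 2.54 and 1.67 CPM in PFOA libraries, against 8.57, 7.08 and 6.85 CPM in control libraries. PFOS libraries had 1.00, 1.20 and 1.92 CPM. PFDA libraries had 3.25, 1.5 and 3.39 CPM. These 9 libraries lie below every control library, and PFDA replicate 2 lies well below the other PFDA libraries. PFDS libraries had 4.22, 5.69 and 3.42 CPM. For 8:2 FTS the levels were 1.25, 1.54 and 1.88 CPM. For 8:2 FTOH they were 3.29, 2.53 and 2.20 CPM. All 18 compound libraries were thus below the lowest control library, 5.69 CPM being the highest among them, and the same held with scaling by library size only. All are set against the same 3 control libraries, so this count, and such counts for the genes below, do not hold separate agreements. The share of all tested genes with such a count was not computed. In bulk RNA, fewer cells that express FOS and less FOS RNA per cell cannot be told apart.

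By mean level the groups ran PFOS 1.38 ± 0.486, 8:2 FTS 1.56 ± 0.315, PFOA 2.20 ± 0.467, 8:2 FTOH 2.67 ± 0.562, PFDA 2.71 ± 1.05, PFDS 4.45 ± 1.15 and control 7.50 ± 0.934 CPM (SD, n = 3 each). Neighbours from PFOS up to PFDA overlapped between libraries, and PFDS stood above PFDA by the gap between 3.42 and 3.39 CPM. The counts behind these levels were small, 16 to 95 reads per compound library and 144 to 193 per control library.

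**Figure D1:**
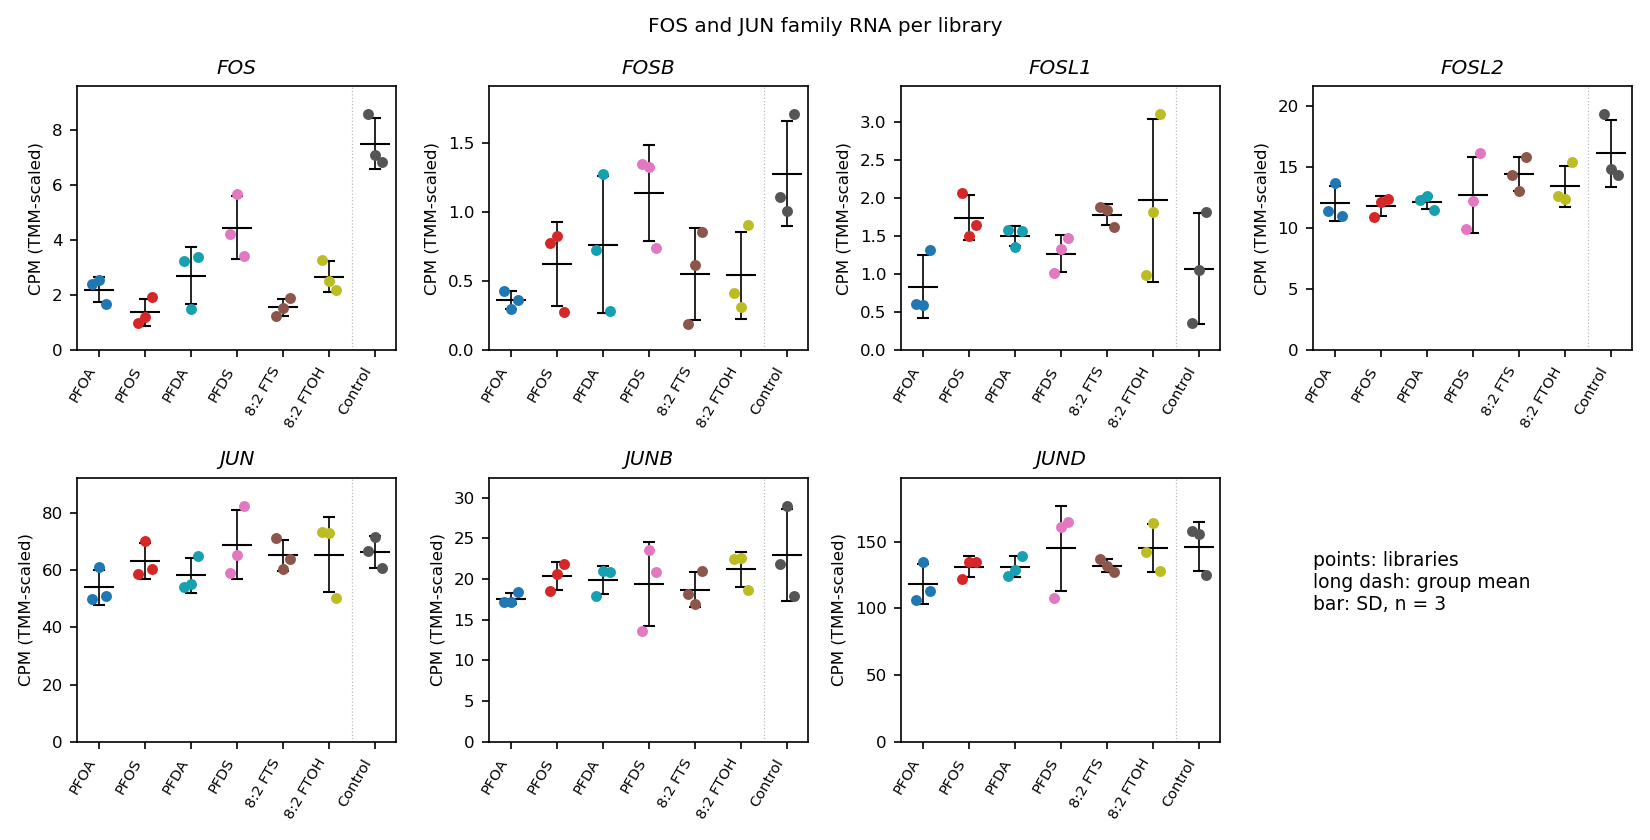
Level of each gene in CPM (TMM-scaled, linear axes from 0) by group, with points for the 3 libraries, a long dash for the mean and bars for the SD. FOS in all 18 compound libraries (1.00 to 5.69 CPM) lies below the 3 control libraries (6.85 to 8.57 CPM), while JUN and JUND overlap control for every compound.

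Relative to control, FOS was lowest for PFOS, with a log2 fold change of -2.49 ± 0.29 (SE), or 5.62-fold lower. The value was -2.29 ± 0.29 for 8:2 FTS, -1.79 ± 0.28 for PFOA, -1.48 ± 0.28 for 8:2 FTOH and -1.42 ± 0.26 for PFDA. For PFDS it was -0.77 ± 0.26, the value nearest to control. FOS was called, at an adjusted p below 0.05 over all genes in edgeR's quasi-likelihood fit, for every compound except PFDS, and it was the only member called for any compound. Calls were rare among the tested genes: 0.0844% were called for 8:2 FTS, 0.0322% for PFOA and 8:2 FTOH, 0.0241% for PFOS and PFDS, and 0.00804% for PFDA. Because FOS was selected on these contrasts, its calls are read no further. The call for PFDA was lost without any 1 of its own 3 libraries, without control replicate 1 or 2, or without 8:2 FTOH replicate 2. It was also lost with scaling by library size and with a replicate block. That for PFOA was lost without PFOA replicate 3. That for 8:2 FTOH was lost without control replicate 1 or 2 or 8:2 FTOH replicate 2 or 3, and also without the pair of libraries that stood apart, where the log2 fold change was -1.45.

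**Figure D2:**
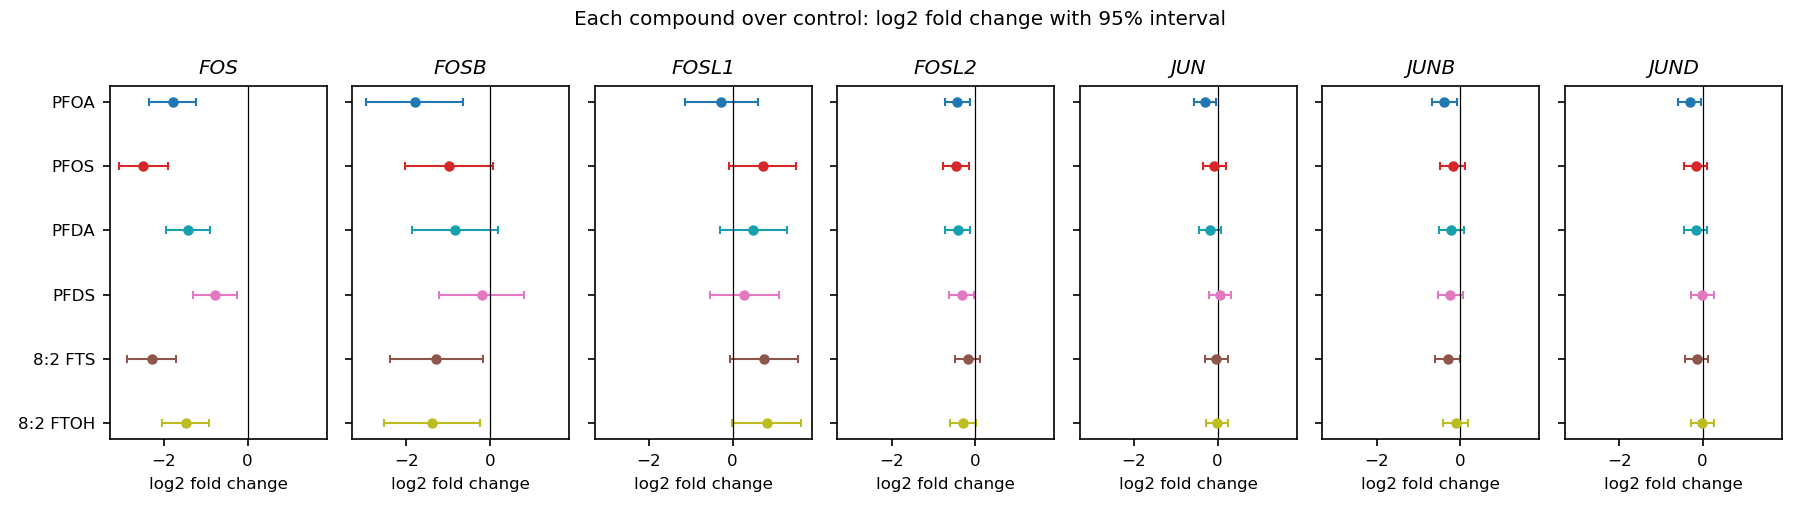
Log2 fold change of each gene for each compound over control, with 95% intervals from the fit over all 21 libraries, compounds from PFOA at the top to 8:2 FTOH at the bottom. The FOS points lie between -2.49 and -0.77, FOSB and FOSL1 have the widest intervals, and FOSL2 and the JUN genes lie within -0.46 and 0.06.

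FOSB, the closest relative of FOS, with a short splice form known as deltaFosB in chronic neuronal stimulation, lies at chr19:45467995-45475179 on the plus strand (ENSG00000125740). It was near the limit of detection, with 4 to 36 reads per library. Its level was 0.428, 0.299 and 0.361 CPM for PFOA, against 1.11, 1.01 and 1.71 CPM in controls. For PFDS it was 1.35, 1.33 and 0.739 CPM. PFOA libraries all lay below the controls, as did those of PFOS, 8:2 FTS and 8:2 FTOH, whereas PFDS and PFDA libraries overlapped them. Over all compounds 15 of 18 libraries were below the lowest control library. The log2 fold change was -1.80 ± 0.57 for PFOA, -1.39 ± 0.57 for 8:2 FTOH, -1.29 ± 0.55 for 8:2 FTS, -0.99 ± 0.52 for PFOS, -0.83 ± 0.51 for PFDA and -0.20 ± 0.50 for PFDS (SE), and none was called. Without the pair of libraries that stood apart the PFDS value was 0.07, on the other side of 0, and that for PFDA was -0.55. Single libraries moved FOSB further: PFDA had -1.34 without its replicate 2 and -0.37 without its replicate 3, and 8:2 FTS had -0.79 without its replicate 1 and -1.75 without its replicate 3. Counts were made without regard to splice forms, so deltaFosB is not resolved. ERCC1 on the opposite strand overlaps FOSB but shares no exonic base with it.

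FOSL2 encodes FRA2, a FOS protein without the strong activation domain of FOS, and lies at chr2:28392448-28417317 on the plus strand (ENSG00000075426). Its levels were 11.4, 13.7 and 11.0 CPM for PFOA, 10.9, 12.1 and 12.4 CPM for PFOS and 12.3, 12.6 and 11.5 CPM for PFDA, against 19.3, 14.8 and 14.3 CPM in controls. These 9 libraries are below every control library, while those of PFDS and of both fluorotelomers overlap them. In all, 14 of 18 compound libraries were below the lowest control library. Log2 fold changes ran from -0.46 ± 0.15 for PFOS to -0.17 ± 0.15 for 8:2 FTS, with 0 called. The sizes were small next to those of FOS, and control replicate 1 was the highest of all 21 libraries. Without it the values ran from -0.30 for PFOS to -0.01 for 8:2 FTS, with -0.17 for PFDS and -0.12 for 8:2 FTOH. PFDS had -0.54 without its own replicate 3. Without the pair of libraries that stood apart, 8:2 FTOH had -0.45, against -0.28 with all libraries.

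FOSL1 encodes FRA1, which like FRA2 lacks a strong activation domain, and lies at chr11:65892049-65900573 on the minus strand (ENSG00000175592). Its 3 control libraries were spread widely, at 0.355, 1.05 and 1.81 CPM. The levels were 0.988, 1.82 and 3.10 CPM for 8:2 FTOH and 1.88, 1.84 and 1.62 CPM for 8:2 FTS. Neither group separates from the controls, and the highest value, 3.10 CPM, is in 8:2 FTOH replicate 3, one of the libraries that stood apart. By mean level the order was 8:2 FTOH, 8:2 FTS, PFOS, PFDA, PFDS, control and PFOA, with every neighbouring pair overlapping. Log2 fold changes against control ran from -0.27 ± 0.44 for PFOA to 0.82 ± 0.41 for 8:2 FTOH, and none was called. Without the pair of libraries that stood apart they were 0.32 for PFOA and 1.04 for 8:2 FTOH, so the PFOA value changes sign. In the same fit 8:2 FTS had 1.33 and PFOS 1.32, the highest values, where all libraries gave 0.75 and 0.73. PFDA had 1.09 and PFDS 0.87, where all libraries gave 0.50 and 0.28. Without control replicate 1, the lowest control library, the values were instead 0.42 for 8:2 FTOH, 0.34 for 8:2 FTS, 0.32 for PFOS, 0.10 for PFDA and -0.13 for PFDS.

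Among the JUN genes, JUN encodes the main activating partner of FOS and lies at chr1:58776845-58784048 on the minus strand (ENSG00000177606). Its levels were 49.8, 61.1 and 51.1 CPM for PFOA and 58.9, 65.5 and 82.6 CPM for PFDS, against 66.7, 71.8 and 60.8 CPM in controls. Over the 18 compound libraries the lowest, median and highest values were 49.8, 60.7 and 82.6 CPM, with 9 below the lowest and 3 above the highest control library. With scaling by library size only, 5 were below and 5 above. No compound group was wholly outside the range of control. The log2 fold change was -0.30 ± 0.13 for PFOA and between -0.19 and 0.06 for the other compounds. Without the pair of libraries that stood apart PFOS had -0.14, where all libraries gave -0.08.

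JUND, which is known to hold back growth in several cell types, lies at chr19:18279694-18281622 on the minus strand (ENSG00000130522) and is a gene of 1 exon. Its levels were 106, 135 and 113 CPM for PFOA and 108, 161 and 165 CPM for PFDS, against 158, 156 and 125 CPM in controls. PFDS replicate 1 is among the lowest of all libraries and PFDS replicate 3 is the highest, so that group spans nearly the whole range. Log2 fold changes ran from -0.31 ± 0.13 for PFOA to -0.01 ± 0.13 for PFDS and 8:2 FTOH. With scaling by library size only, JUN for 8:2 FTS and 8:2 FTOH and JUND for PFDS and 8:2 FTOH had values of 0.01 to 0.03 instead, so no direction can be given for them. Without the pair of libraries that stood apart JUND had -0.27 for PFOS, -0.26 for PFDA, -0.24 for 8:2 FTS and -0.11 for PFDS, where all libraries gave -0.17, -0.16, -0.14 and -0.01.

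JUNB, a weaker activator than JUN that often opposes it, lies at chr19:12791486-12793315 on the plus strand (ENSG00000171223) and has 1 exon. Its levels were 17.2, 17.2 and 18.4 CPM for PFOA, against 21.8, 29 and 17.9 CPM in controls. The compound libraries ran from 13.6 to 23.6 CPM, 4 of 18 below the lowest control library and 0 above the highest. With scaling by library size only, 2 were below. Log2 fold changes were negative for all 6 compounds, from -0.38 ± 0.15 for PFOA to -0.10 ± 0.15 for 8:2 FTOH, and none was called. Without control replicate 2, its highest library, those for PFOS and 8:2 FTOH were 0.03 and 0.11, on the other side of 0, and that for PFDA was 0.00. Without the pair of libraries that stood apart the values were farther from 0, at -0.45 for 8:2 FTS, -0.38 for PFDS, -0.35 for PFDA, -0.33 for PFOS and -0.18 for 8:2 FTOH, where all libraries gave -0.30, -0.23, -0.21, -0.18 and -0.10. Of its exonic bases 259, or 14.15%, also belong to HOOK2 on the opposite strand, which averaged 17.9 CPM with scaling by library size only. Counting ignored strand, so the JUNB level is uncertain, and how far the overlap changes it was not tested.

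Intervals show what sizes of change these libraries leave room for. Every 95% interval of FOSL2, JUN, JUNB and JUND against control, 6 of 6 for each gene, lay within a 2-fold change in either direction, with extremes on the log2 scale of -0.76 for FOSL2 and 0.33 for JUN. For FOS, FOSB and FOSL1 the count was 0 of 6. For PFOA, all 7 members had negative values and a median log2 fold change of -0.38, against 0.01 over all tested genes, of which 48.2% were negative. The members were selected on these values, share the same control libraries and in part vary together, so the signs are not separate agreements. Without the pair of libraries that stood apart the FOSL1 value for PFOA was 0.32. For the other compounds the median over members was between -0.21 and -0.10, beside 0.00 or 0.01 over all genes. Members whose 3 compound libraries all lay below the 3 control libraries numbered 3 of 7 for PFOA, beside 8.46% of all tested genes, and 3 for PFOS, beside 7.41%. There were 2 for PFDA, 8:2 FTS and 8:2 FTOH, beside 7.85%, 7.17% and 6.98% of tested genes in that order, and 1 for PFDS, beside 4.53%.

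Shares within the FOS family are a further description of the same levels, and depend on the same counted lengths. FOS made up 13.7% ± 2.06 of the family's CPM per kb for 8:2 FTS, 13.8% ± 4.27 for PFOS, 22.6% ± 7.82 for 8:2 FTOH, 24.0% ± 4.78 for PFOA, 24.1% ± 8.1 for PFDA and 34.6% ± 8.04 for PFDS, against 43.5% ± 3.49 in controls (SD, n = 3 each). Between libraries the PFDS group, at 25.4% to 40.3%, overlapped the controls at 39.7% to 46.6%, and no library of another compound exceeded 30.5%. Without 8:2 FTOH replicate 3 the FOS share for 8:2 FTOH was 26.5% ± 5.71 (n = 2). FOSL2 took 43.7% ± 8.1 for PFDS to 58.3% ± 3.71 for PFOA, against 41.5% ± 4.92 in controls. The whole FOS family amounted to 3.24% ± 0.231 of the JUN family for PFOS and up to 3.93% ± 0.421 for PFDS, against 5.12% ± 0.807 in controls. For 8:2 FTOH it was 3.78% ± 1.17 with replicate 3, whose value of 5.13% lay within the control range, and 3.11% ± 0.133 over the other 2 libraries. JUND kept 67.6% to 69.1% of the sum over all 7 genes as the mean of each group.

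**Figure D3:**
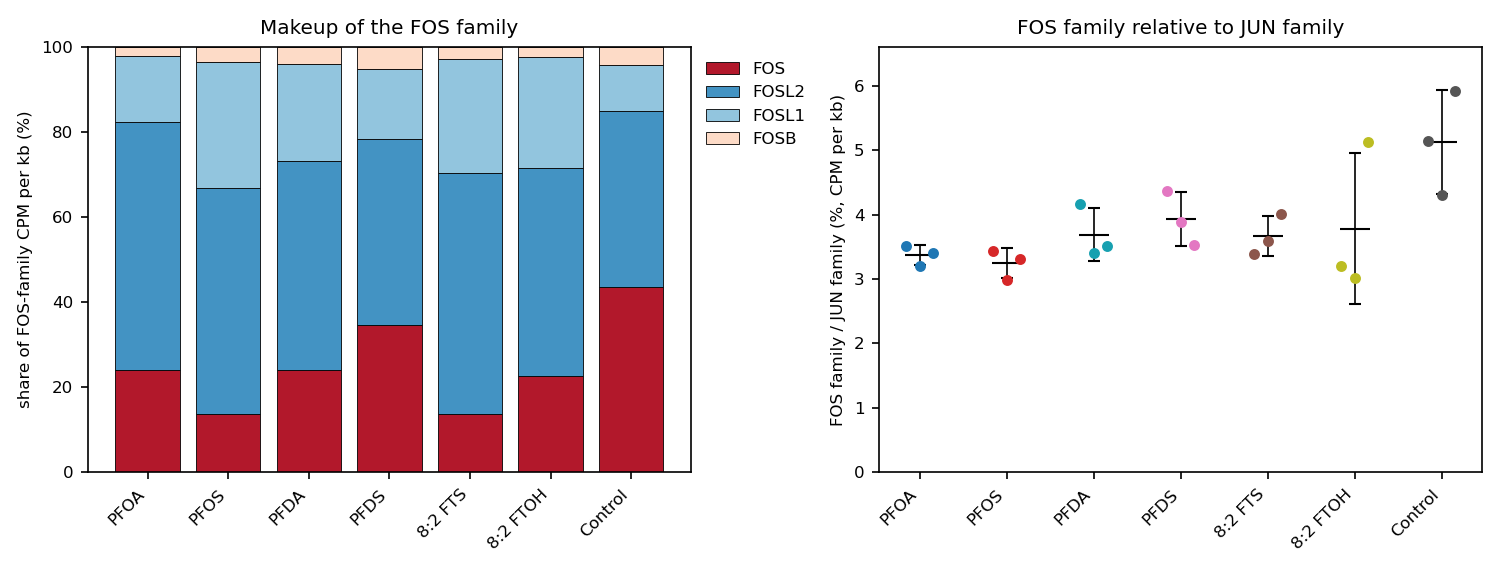
Left, mean share of each gene in the summed CPM per kb of the FOS family, by group (stacked bars from 0 to 100%). Right, the FOS family as a percentage of the JUN family, with points for libraries, a dash for the mean and bars for the SD (n = 3). The FOS share is 13.7% to 34.6% in compound groups and 43.5% in controls, and the control libraries at the right reach the highest ratio, 5.92%.

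Between compounds at the same dose and time, PFDS and PFOS, sulfonic acids that differ in chain length, formed the pair on which the members were also selected. FOS was at 4.22, 5.69 and 3.42 CPM for PFDS, against 1.00, 1.20 and 1.92 CPM for PFOS. The libraries do not overlap, with PFDS higher, as was so for 3.94% of all tested genes. FOS was 3.29-fold higher for PFDS (log2 1.72 ± 0.30, SE). It was the 1 gene called in that comparison, which is 0.00402% of those tested, and nothing is read from the call. The call was lost without PFDS replicate 1 or 2 or PFOS replicate 1 or 2, with log2 values of 1.48 to 2.03 over all libraries left out. FOSB had a log2 difference of 0.79 ± 0.54 and FOSL1 one of -0.44 ± 0.40, and FOSL2 and the JUN genes lay between -0.06 and 0.15.

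The other 14 pairs of compounds were not themselves used to select the genes. Each is, however, the difference between the values of its compounds against control, on which the genes were selected. The p-values of these pairs are therefore description and no independent support. Over 98 tests, 14 pairs by 7 genes, edgeR called 0 members, while 19 had an unadjusted p below 0.05 and DESeq2 called 1. Over all genes, 2.22% to 8.6% had an unadjusted p below 0.05 in a pair. DESeq2 called from 0 genes to 48 (PFDS against PFOA) in a pair. Over all genes 0.0% were called in 11 of these pairs, 0.00402% for 8:2 FTOH against PFOA and against PFDA, and 0.00804% for 8:2 FTOH against PFOS. The 19 were FOS 9 times, FOSL1 and JUN 3 times each, and FOSB and JUND 2 times each.

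Among these 14 pairs the FOS estimate was farthest from 0 for 8:2 FTS against PFDS, with 1.25, 1.54 and 1.88 CPM for 8:2 FTS against 4.22, 5.69 and 3.42 CPM for PFDS. The libraries of the pair do not overlap, with 8:2 FTS lower, as was so for 3.67% of all tested genes. The FOS log2 difference was -1.52 (95% interval -2.14 to -0.91) with an adjusted p of 0.249 over all genes in edgeR, and 0.279 when adjusted over all genes and all 14 pairs together. DESeq2 and edgeR without a filter on low counts called this difference. Both compounds carry a sulfonic acid, and 8:2 FTS has a fluorotelomer chain.

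For chain length in the carboxylic acids, PFDA against PFOA gave a FOS log2 difference of 0.38 (-0.22 to 0.97, adjusted p = 1.0 in edgeR). The libraries overlap, and the interval leaves room for nearly a 2-fold difference. For the acid group at the shorter chain, PFOS against PFOA gave -0.70 (-1.35 to -0.05, adjusted p = 0.958), and at the longer chain PFDS against PFDA gave 0.65 (0.09 to 1.20, adjusted p = 0.89). These point estimates have opposite signs, and neither passed the test. Between the fluorotelomers, 8:2 FTS against 8:2 FTOH gave -0.82 (-1.47 to -0.17, adjusted p = 1.0), with 1.25 to 1.88 CPM for 8:2 FTS below 2.20 to 3.29 CPM for 8:2 FTOH in all libraries. Of all tested genes, 4.2% were likewise lower for 8:2 FTS without overlap. A difference between 8:2 FTS and PFOS was not detectable at this depth, at 0.20 (-0.49 to 0.88, adjusted p = 1.0).

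The remaining pairs follow with the 95% interval and the adjusted p in parentheses. FOS had log2 differences of 1.02 (0.43 to 1.61, adjusted p = 0.266 in edgeR) for PFDS against PFOA, 1.01 (0.37 to 1.66, 0.999) for 8:2 FTOH against PFOS and -1.07 (-1.69 to -0.46, 1.0) for PFOS against PFDA. For 8:2 FTS against PFDA the value was -0.88 (-1.5 to -0.26, 1.0), and for 8:2 FTOH against PFDS -0.71 (-1.29 to -0.13, 0.922). For 8:2 FTS against PFOA it was -0.50 (-1.16 to 0.16, 0.781), for 8:2 FTOH against PFOA 0.32 (-0.30 to 0.94, 0.894) and for 8:2 FTOH against PFDA -0.06 (-0.64 to 0.53, 1.0). The last of these was 0.03, on the other side of 0, without the pair of libraries that stood apart.

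**Figure D4:**
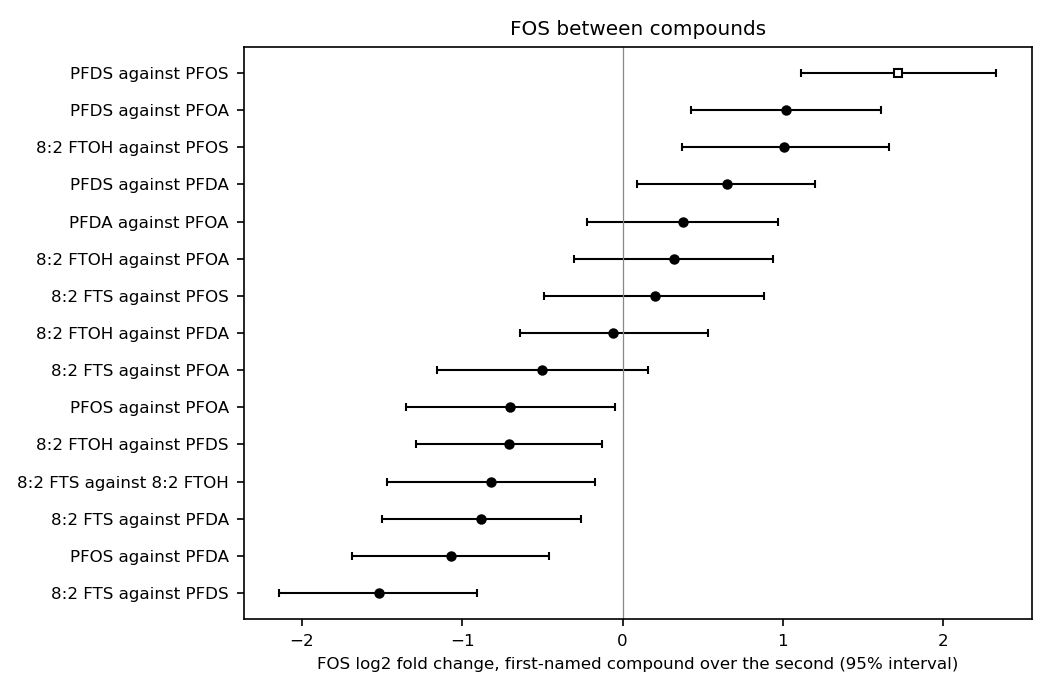
FOS log2 fold change for each pair of compounds, first-named over second-named, with 95% intervals. The open square is the pair used in selecting the genes (1.72), and the filled points are the other 14, from -1.52 to 1.02, none called by edgeR.

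Differences of the other members between compounds were bounded more or less tightly by their counts. For FOSL2, JUN, JUNB and JUND all 14 intervals of each gene lay within a 2-fold change, with the widest bounds at -0.51 for JUNB and 0.63 for JUN on the log2 scale. JUN had 69.0 ± 12.2 CPM for PFDS against 54.0 ± 6.17 CPM for PFOA, and the log2 difference was 0.36 (0.10 to 0.63, adjusted p = 0.407 in edgeR). The same pair gave 0.30 (0.02 to 0.58, adjusted p = 0.56) for JUND and 1.60 (0.41 to 2.80, adjusted p = 0.407) for FOSB. FOSB was at 1.35, 1.33 and 0.739 CPM for PFDS against 0.428, 0.299 and 0.361 CPM for PFOA, without overlap. Of all tested genes, 5.37% were likewise higher for PFDS in that pair. PFOA had the lowest mean of all 7 groups for FOSB, FOSL1, JUN, JUNB and JUND. FOSL1 gave 1.09 (0.21 to 1.97, adjusted p = 0.722) for 8:2 FTOH against PFOA, 1.01 (0.14 to 1.88, 0.607) for 8:2 FTS against PFOA and 1.00 (0.14 to 1.85, 0.958) for PFOS against PFOA.

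Across the 21 libraries the JUN genes varied together. Pearson's r of log2 CPM was 0.79 for JUN and JUND, 0.74 for JUNB and JUND and 0.51 for JUN and JUNB, and after group means were subtracted it was 0.75, 0.74 and 0.52 for the same pairs. The variation they share is therefore present between libraries of one group. FOS and FOSB had r = 0.44 over all libraries and -0.34 within groups, so the group means carry the positive value. FOS and FOSL1 had -0.46 and -0.40. Within groups JUN, JUNB and JUND had r of -0.67, -0.52 and -0.62 with the mitochondrial share of a library, and FOS had -0.52, FOSB 0.54 and FOSL1 0.53 with it. With the log2 total count, r within groups was -0.59 for FOSB, 0.54 for JUN and 0.40 for JUND. These values share library, depth and scaling, and the part of RNA quality or depth in them was not tested.

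**Figure D5:**
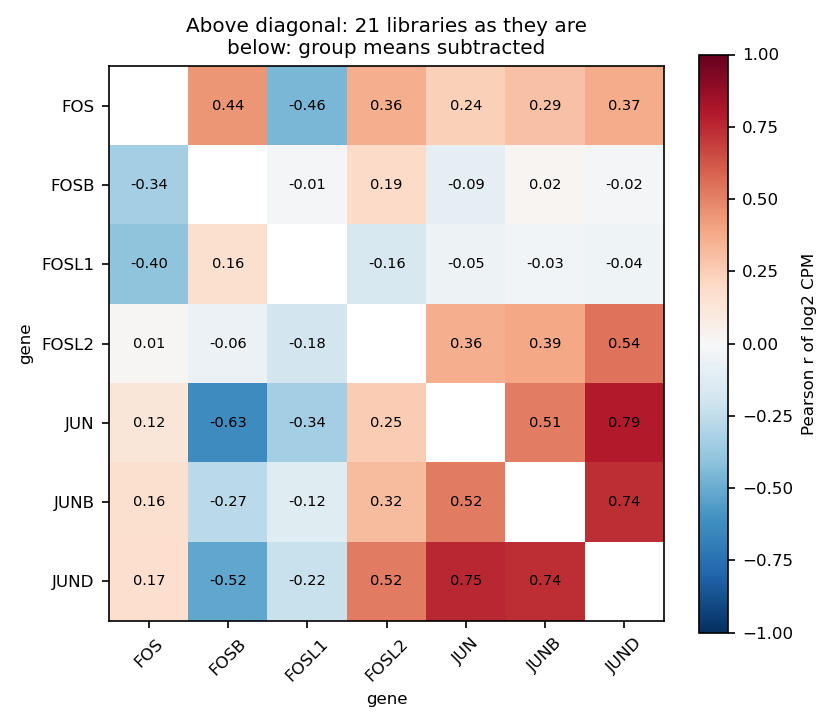
Pearson's r of log2 CPM between the 7 genes over 21 libraries, above the diagonal as measured and below it after subtracting group means (colour scale from -1 to 1). The block of JUN, JUNB and JUND is positive on both sides (0.51 to 0.79), whereas FOS and FOSB change from 0.44 to -0.34.

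The gene most like FOS, by Pearson's r of log2 CPM over the 21 libraries among 13477 protein-coding genes with a mean of at least 1 CPM, was TCIRG1 at 0.82, a subunit of the vacuolar proton pump. ASAP2 followed at 0.74, PGD, PSRC1, PNP and EGR1 at 0.73, TRIM24, RDH11 and PAIP2 at 0.70 and TSPAN3 at 0.69. TCIRG1 had a mean of 1.0 CPM, at the cutoff for the genes compared. EGR1, another immediate early gene, had r = -0.15 within groups and PAIP2 had -0.14, so their likeness to FOS lies in the group means. For the others r within groups ran from 0.22 (TSPAN3) to 0.60 (PNP). For JUN the first gene was HMGA1, an architectural chromatin protein, at 0.94 and also at 0.94 within groups, followed by TUFM and SZRD1 at 0.92 and FSCN1 and DGCR2 at 0.91. JUND was most like CLIP2 at 0.87 and TMEM151B, ARHGEF2 and ATP6V0E2 at 0.86, with OGDH at 0.85. JUNB was most like RIC8A at 0.89 and PRELID1 at 0.85, then C7orf50 at 0.81 and PDZD4 and LIMD2 at 0.80. FOSL2 was most like KBTBD2 and CELF2 at 0.81, TIMELESS at 0.80, KIF5A at 0.79 and MYH9 at 0.78. FOSL1 was most like ANXA4 at 0.76, PDK1 at 0.74, ALDOC at 0.73 and CDC42EP1 and DDIT4 at 0.72. FOSB was most like MRPL20 and NDUFA13 at 0.67, ZCCHC2 at 0.66 and MT-ND6 and TCEAL4 at 0.65.

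Other immediate early genes were read beside FOS. Of a list of 28, 21 passed the filter on low counts, and against control 1 was called lower for each compound except 8:2 FTS, where 2 were, with 0 called higher. Over all tested genes 0.00804% (PFDA) to 0.0844% (8:2 FTS) were called. EGR1, a zinc finger factor made by the same kinds of signal as FOS, was called lower for PFOA, PFOS, PFDA, PFDS and 8:2 FTS. Its levels were 16.3, 17.1 and 19.3 CPM for PFDS, 10.9, 16.6 and 10.2 CPM for PFOS and 21.7, 21.5 and 26.8 CPM for 8:2 FTOH, against 45.7, 33 and 28.7 CPM in controls. All of these compound libraries lie below the controls, and those of 8:2 FTOH are the nearest. Of all tested genes, 4.53% (PFDS), 7.41% (PFOS) and 6.98% (8:2 FTOH) were likewise lower without overlap. The log2 fold change of EGR1 was -1.53 ± 0.15 for PFOS and -1.02 ± 0.15 for PFDS (SE), and -0.63 for 8:2 FTOH, which edgeR did not call and DESeq2 did. FOS and EGR1 thus had their smallest changes under different compounds, FOS under PFDS and EGR1 under 8:2 FTOH. Between compounds EGR1 was called once in the 14 pairs, at 23.3 ± 2.97 CPM for 8:2 FTOH against 12.6 ± 3.47 CPM for PFOS (log2 0.89 ± 0.16, adjusted p = 0.0324 in edgeR, n = 3 each). In that pair 0.00804% of all tested genes were called. The list was chosen with earlier results of these data known, so this call, like those against control, is description only.

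PLK2, a kinase made in active neurons, was called lower for 8:2 FTS and 8:2 FTOH, with a log2 fold change of -0.62 ± 0.11 for each. Its levels were 30.3, 30.3 and 26.6 CPM for 8:2 FTS, against 45, 48.6 and 41 CPM in controls. By sign, 13 (PFDS) to 17 (PFOS) of the 21 tested genes of the list had negative values, beside 48.2% to 49.5% of all genes. Besides EGR1 and PLK2, values were below 0 for all 6 compounds, with TMM scaling, for EGR3 (-0.90 to -0.13), CCN1 (-0.82 to -0.19), SGK1 (-0.52 to -0.24), KLF6 (-0.38 to -0.19), IER5, MCL1, ZFP36, ARC and RHOB, and above 0 for NR4A1 and PLK3. DUSP1, a phosphatase that acts on MAP kinases, had log2 fold changes from -0.12 for PFOA to 0.10 for 8:2 FTOH, and IER2 from -0.13 for PFDS to 0.13 for 8:2 FTOH. NR4A1, a nuclear receptor, had positive values, from 0.21 for PFOA to 0.43 for PFDS. None of these genes other than EGR1 and PLK2 passed the test. The median of the list lay between -0.22 for PFDA and -0.08 for PFOS, beside 0.00 or 0.01 over all genes.

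Genes that act with or on AP-1 were also counted. Of 18 other basic leucine zipper genes, such as ATF3 and MAFF, 15 were tested. Of 17 factors that bind FOS and JUN promoters and coactivators, such as SRF, CREB1 and CREBBP, all 17 were tested. This list shares genes with the first, CREB1 among them. For 19 upstream kinases, such as the JNK gene MAPK8, 18 were tested, and for 24 reported AP-1 target genes, 17. In each list edgeR called 0 for any compound against control. At an unadjusted p below 0.05 there were 8 of 90 tests for the leucine zipper genes and 9 of 102 for the promoter-binding factors and coactivators. The kinases had 6 of 108 and the targets 23 of 102, beside 5.58% to 10.1% of all genes. DESeq2 called 0, 1, 0 and 3 of them. It also called more of all tested genes against control, 19 (PFOS) to 128 (PFOA), where edgeR called 2 (PFDA) to 21 (8:2 FTS). Closest in edgeR were VEGFA, an angiogenic growth factor among the targets, with 134 ± 6.27 CPM for 8:2 FTS against 105 ± 9.67 CPM in controls (log2 0.36 ± 0.08), and CREBBP, a coactivator of CREB, with 156 ± 8.62 CPM for PFOA against 197 ± 23.4 CPM in controls (log2 -0.34 ± 0.08). Neither passed edgeR's test, and DESeq2 called both, VEGFA also for PFOS, and FTH1, the ferritin heavy chain, for PFOA.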

How the data were processed

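Per the submitters' processing notes, the authors used FastQC, MultiQC, HISAT2, SAMtools, featureCounts and DESeq2 with hg38. Per the file headers, the deposited counts were made by featureCounts 2.0.1 per gene, without a strand option, and the deposited gene length is the summed exon length in bases. The authors' normalized table holds signal values for 37476 genes in 19 libraries. They equal the deposited counts divided by 1 factor per library within 0.01 in 100% of cases, so whole reads were recovered and the raw counts were used throughout.

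Raw counts were filtered with filterByExpr, scaled by TMM and fitted with edgeR 4.0.16 (quasi-likelihood, robust, 7 groups, 21 libraries) in R 4.3.3. P-values were adjusted by Benjamini-Hochberg over 24879 genes within each comparison at 0.05. The biological coefficient of variation was 0.1124. Alternatives were DESeq2 1.42.0, other scalings and filters, only the groups compared, a replicate term and leaving out each library. DESeq2 gave no adjusted p for FOS under PFOA and PFDA against control. Log2 CPM for correlations used a prior count of 2. Group spread is SD over 3 libraries.

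The members and gene lists were chosen with earlier results of these data known. Named are all members, list genes that were called or had the smallest p, and the 5 genes most correlated with each member (10 for FOS). DUSP1, IER2, NR4A1, CREB1, FTH1 and the immediate early genes named for the sign of their values were named outside this rule after their values were seen. Promoters are from RefSeq (6 of 7 genes matched), gene types from GENCODE. The procedure was tested on simulated data.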

Additional observations from a re-analysis of the deposited data

Results flagged for a closer look

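FOS differed between PFDS and PFOS, at 4.45 ± 1.15 CPM for PFDS against 1.38 ± 0.486 CPM for PFOS (SD, n = 3 each), a log2 fold change of 1.72. It is listed because the effects of both sulfonic acids, each relative to the same controls, differ here by that amount. The genes were selected on this pair among others, so the value is a description and no test of a difference.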

How the results depend on the processing

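Against control, FOS was called for 5 compounds. The number was 3 to 5 with a library left out (3 without control replicate 1, control replicate 2 or 8:2 FTOH replicate 2), 4 with library size scaling (FOS for PFDA lost), 6 calls without a filter (JUND for PFOA added), and 3 with DESeq2, which gave no adjusted p for 2 of the 5. For PFDS against PFOS, 1 member was called in the main fit. That count was 0 with library size scaling and 0 with only the groups compared, and 0 to 1 with a library left out. For the other 14 pairs the count was 0, against 1 with DESeq2 (FOS, 8:2 FTS against PFDS), 2 without a filter (that call and JUN, PFDS against PFOA) and 0 to 1 with a library left out (JUND, PFDS against PFOA, without PFDS replicate 1). The added JUND and JUN calls came with more calls over all genes. Without a filter 161 genes were called for PFOA, against 8 in the main fit. For PFDS against PFOA 75 were called without a filter and 11 without PFDS replicate 1, against 0 in the main fit. No called log2 fold change reversed.

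Same-numbered libraries did not deviate together: correlations between groups ran from -0.22 to 0.24, and 7 of 21 libraries correlated best with their own number. A replicate block gave 4 calls against control (FOS for PFDA lost), 1 for PFDS against PFOS and 0 for the other pairs. Low counts limit FOSB and FOSL1 most, with median half-widths of 1.08 and 0.83 on the log2 scale against control, beside 0.26 for JUN. Of 40 genes named as most like a member, 11 were also in the top list by Spearman's rho and 6 after group means were subtracted, 2 and 0 of the 10 for FOS.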
